A study of Mus musculus with 15 samples.

Results

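Gm48453 and Gm20597 are 2 genes of long intergenic noncoding RNA (lincRNA), 2 of the 55401 genes counted in 15 RNA-seq libraries of mouse oocytes. They were selected on measured values: neither had a count in a library of in vivo grown oocytes, and both had counts in every library of oocytes cultured to day 10. Their levels in those libraries, and the differences of day 10 or day 6 cultures from in vivo oocytes or from each other, are therefore a description and carry no test. The effect of neurotrophin-4 at day 6, the neighbouring genes and the other lincRNA genes were not used in the choice and were tested. The effect of neurotrophin-4 at day 10 was tested as well. A gene absent from either day 10 group could not be chosen, which limits this effect and its difference from that at day 6. Gm20597 also entered the day 6 test through the day 10 libraries, since a filter on low counts removed it without them.

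Oocytes at the germinal vesicle stage came from Kunming mice, for which the labels state an age of 12 to 14 days without a separate age for the in vivo oocytes. Preantral follicles were isolated and cultured without (IVG) or with (IVG-NT) neurotrophin-4 (NT-4), a growth factor that signals through the TRKB receptor, and their oocytes were taken on day 6 or day 10. Oocytes of follicles grown in vivo (IVV), released by puncture of antral follicles, served as the reference. Each library pooled 6 oocytes, the RNA was amplified with the SMART-Seq2 protocol from an oligo(dT) primer, and each of the 5 groups held 3 libraries. IVG and IVG-NT without a day stand for day 10. In pooled oocytes, fewer oocytes that express a gene and less RNA per oocyte cannot be told apart.

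lincRNAs are transcribed from DNA between protein-coding genes, and many are capped, spliced and polyadenylated like mRNAs without coding for a known protein. A growing oocyte transcribes actively and stores RNA, and transcription is shut down towards the end of growth, so the RNA of a germinal vesicle oocyte is largely a stock made earlier. The mouse oocyte is known for a large set of such noncoding transcripts. For Gm48453 and Gm20597 the annotation gives a position and exons and no function.

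Library depth ranged from 5954262 to 55593251 counts, and 10991 to 22966 genes had a count. The IVV libraries held 19033272 to 43465801 counts, the IVG libraries 39274848 to 45575465 and the IVG-NT libraries 33860434 to 40658644. At day 6 the IVG libraries held 23684453 to 55593251 counts, whereas replicates 1 and 2 of IVG-NT stood apart with 5954262 and 7125348 against 50336973 in replicate 3. The libraries also fell into 2 kinds by the annotated rRNA gene CT010467.1, which took 12.5% to 37.9% of counts in 9 libraries (rRNA-rich, namely replicate 3 of IVV with the first pair of replicates of every culture group) and 0.187% to 0.714% in the other 6 (rRNA-poor). All 10 listed oocyte markers, among them Gdf9, Bmp15 and Zp3, had counts in every library, at a summed level of 12676 to 22881 normalized CPM (counts scaled to a common library size by TMM). The 12 granulosa cell markers summed to 151 to 217 CPM in IVV, up to 305 in IVG, 123 to 246 in IVG-NT, 54.0 to 146 in IVG day 6 and 48.7 to 169 in IVG-NT day 6. The 10 theca and stroma markers summed to 14.7 to 23.0 CPM in IVV, 0.562 to 36.7 in IVG, 1.56 to 3.90 in IVG-NT and at most 7.71 at day 6. The 9 macrophage markers summed to 16.9 to 67.0 CPM in IVV, 7.05 to 52.7 in IVG, 5.24 to 36.6 in IVG-NT, 20.3 to 64.6 in IVG day 6 and 5.05 to 59.6 in IVG-NT day 6. The part of these other cell types in the levels of the 2 lincRNA genes was not tested.

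Gm48453 (ENSMUSG00000114289) lies on the minus strand of chromosome 14, from 59084136 to 59087118 in GRCm38 (GENCODE vM21), and has 2 exons. Exon 1 spans 59087007 to 59087118 (112 bases) and exon 2 spans 59084136 to 59086332 (2197 bases), which makes a spliced transcript of 2309 bases with 41.1% GC. Its longest open reading frame is 62 codons. None of its 2260 stretches of 50 bases occurs letter for letter in an annotated transcript of another gene. Copies with scattered mismatches or outside annotated transcripts were not searched for. The junction of its exons is shown first, because it is the stretch found in the spliced RNA and not in the genomic DNA; the capitals mark the last base of exon 1 and the first base of exon 2. The 3′ end follows, because amplification started at the poly(A) tail; the capitals there mark the AATAAA polyadenylation signal and its repeat, which starts 17 bases before the end of the transcript at its last copy.
Gm48453 junction of exons 1 and 2: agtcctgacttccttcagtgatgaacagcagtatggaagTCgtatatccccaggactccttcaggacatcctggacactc
Gm48453 3′ end: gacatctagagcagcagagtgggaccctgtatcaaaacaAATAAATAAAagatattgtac

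Gm20597 (ENSMUSG00000112739) lies on the minus strand of chromosome 10, from 53498443 to 53518989, with 4 exons of 21, 131, 69 and 5265 bases over a span of 20547 bases. Exon 1 spans 53518969 to 53518989, exon 2 53518754 to 53518884, exon 3 53510854 to 53510922 and exon 4 53498443 to 53503707. The spliced transcript has 5486 bases and 45.2% GC, and its longest open reading frame is 91 codons. Of its 5437 stretches of 50 bases, 55 (1.01%) are shared with annotated transcripts of 5 other genes, the largest number (23) with AC155941.1, a lincRNA gene on the opposite strand that overlaps it. The whole of exon 3 (69 bases) is also exon sequence of AC155941.1, which is 1.26% of the exon bases of Gm20597 and 3.66% of those of AC155941.1. SMART-Seq2 keeps no strand, so reads within these 69 bases cannot be assigned to one of the 2 genes. Exons 1 to 3 are shown with exon 3 in capitals, and the 3′ end with the AATAAA signal in capitals, which starts 32 bases before the end.
Gm20597 exons 1 to 3: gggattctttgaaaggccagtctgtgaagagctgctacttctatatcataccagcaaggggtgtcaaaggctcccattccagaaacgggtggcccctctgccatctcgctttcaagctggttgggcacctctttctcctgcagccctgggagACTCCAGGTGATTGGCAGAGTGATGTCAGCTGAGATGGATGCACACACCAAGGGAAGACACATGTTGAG
Gm20597 3′ end: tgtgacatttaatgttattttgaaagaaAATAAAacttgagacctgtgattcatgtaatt

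The RefSeq table of promoters (GRCm38.p6) holds Gm20597, at chr10:53518940-53519239 on the minus strand, from 250 bases before to 50 bases after the start. This window is shown because the gene had no count in 6 libraries and counts in 9, and it is where transcription of the gene begins. The capitals mark TATAAA, the only match to this TATA box on either strand, which begins 72 bases upstream of the start; 13.6% of the 32851 promoters of the table hold these letters. CANNTG, the E-box that reads the same on both strands, occurs once, 147 bases upstream, and is held by 72.3% of promoters. Neither CCAAT (37.4% of promoters) nor TAATTG, the letters of the element bound by the oocyte factor NOBOX (8% of promoters), occurs in the window on either strand. It holds 4 CpG, and 38% of promoters hold no more. These are matches of letters and not binding sites.
Gm20597 promoter: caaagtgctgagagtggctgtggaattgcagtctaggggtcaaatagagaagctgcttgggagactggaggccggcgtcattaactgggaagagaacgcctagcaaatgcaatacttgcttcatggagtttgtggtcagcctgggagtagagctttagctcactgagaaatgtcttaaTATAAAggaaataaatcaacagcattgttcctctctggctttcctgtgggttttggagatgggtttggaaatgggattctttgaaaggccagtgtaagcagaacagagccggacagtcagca

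Gm48453 had 0 counts in each of the 3 IVV libraries. It had 158, 306 and 136 counts in IVG replicates 1 to 3 and 123, 128 and 137 counts in IVG-NT replicates 1 to 3. All 6 day 10 libraries thus had more than 100 counts of a gene with none in vivo. As normalized CPM, its level was 4.59 ± 2.28 in IVG (SD, n = 3) and 3.72 ± 0.570 in IVG-NT (SD, n = 3). A count of 0 allows up to 3 counts, which is 0.0628, 0.182 and 0.0610 CPM in IVV replicates 2, 3 and 4 and 0.0264 CPM over the group, for counting error only. Against this limit over the group, the mean level in IVG-NT was at least 141-fold higher than in IVV. IVV replicate 3 was an rRNA-rich library and the other 2 were rRNA-poor, and the rule itself required 0 counts in all 3.

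Gm20597 had 0 counts in each IVV library as well. It had 24, 41 and 104 counts in IVG replicates 1 to 3 and 44, 35 and 79 counts in IVG-NT replicates 1 to 3. These are fewer counts than those of Gm48453 in each of the 6 libraries, from a longer transcript. Its level was 1.14 ± 0.608 CPM in IVG (SD, n = 3) and 1.44 ± 0.355 CPM in IVG-NT (SD, n = 3), the latter at least 54.5-fold higher than the limit over the IVV group.

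**Figure D1:**
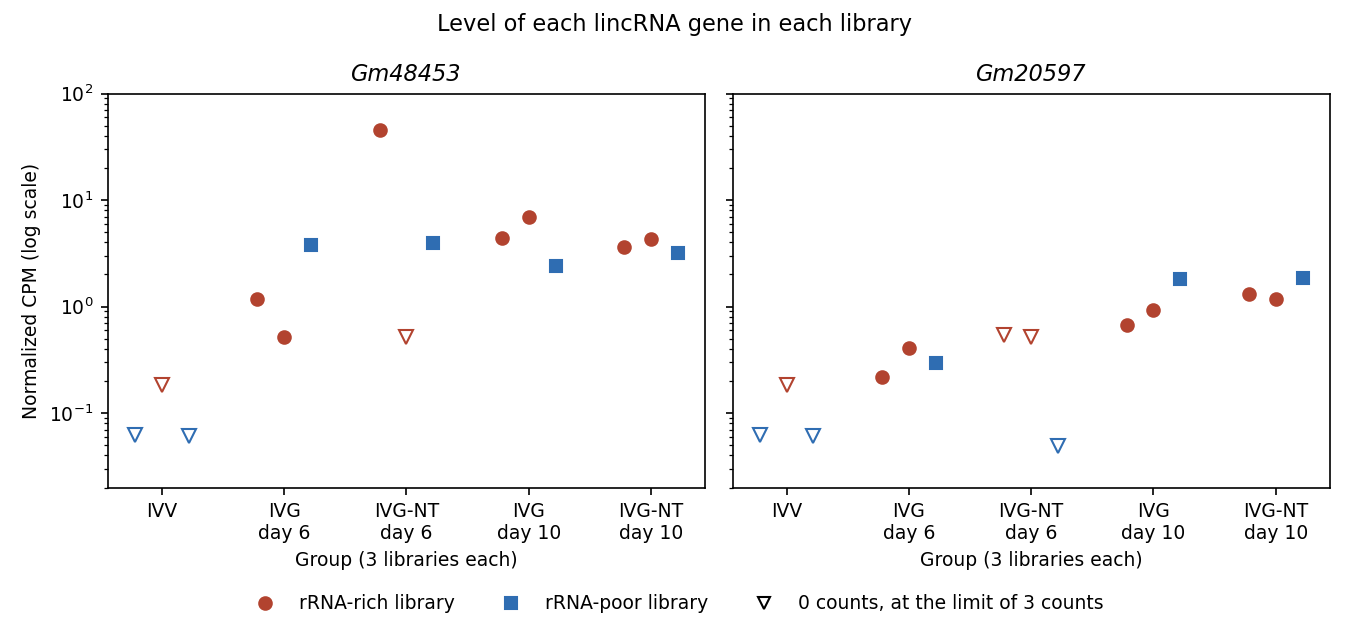
Normalized CPM (log scale) of Gm48453 and Gm20597 in each of the 15 libraries, by group; circles are rRNA-rich and squares rRNA-poor libraries, and open triangles stand at the limit of 3 counts for libraries with 0 counts. All 6 day 10 libraries lie between 2.39 and 6.94 CPM for Gm48453 and between 0.674 and 1.85 CPM for Gm20597, above the IVV limits of 0.0610 to 0.182 CPM, and the day 6 libraries are spread most for Gm48453.

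At day 6, Gm48453 had 33, 10 and 258 counts in IVG replicates 1 to 3, and 249, 0 and 242 counts in IVG-NT replicates 1 to 3. The 249 counts came from replicate 1, the library of 5954262 counts, in which they made 45.0 CPM, and the 0 from replicate 2, in which up to 0.522 CPM would have gone unseen. The mean level was 1.83 ± 1.73 CPM in IVG day 6 (SD, n = 3) and 16.3 ± 24.9 CPM in IVG-NT day 6 (SD, n = 3), at least 69.3-fold and 617-fold higher than the IVV limit, the latter resting on 1 library. Gm48453 was thus counted in 5 of the 6 day 6 libraries and in 11 of the 12 cultured libraries. By mean level the groups ran from IVV through IVG day 6, IVG-NT and IVG to IVG-NT day 6. The ranges of each pair of neighbours in this order overlapped except for IVV and IVG day 6, where the lowest cultured library was at 0.515 CPM.

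Gm20597 at day 6 had 6, 8 and 20 counts in IVG replicates 1 to 3 and 0 counts in all 3 IVG-NT libraries. Its level in IVG day 6 was 0.307 ± 0.0986 CPM (SD, n = 3), at least 11.6-fold higher than the IVV limit. In the control culture the 3 day 10 libraries (0.674 to 1.83 CPM) all lay above the 3 day 6 libraries (0.216 to 0.412 CPM), a pattern that 4.47% of the 21009 genes tested had. Gm20597 was thus counted in 3 of 6 day 6 libraries, all 3 of them without NT-4, and in 9 of the 12 cultured libraries. By mean level the groups ran from IVV and IVG-NT day 6, both at 0, through IVG day 6 and IVG to IVG-NT, and the ranges of IVG and IVG-NT overlapped.

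NT-4 was compared with the control culture on each day by edgeR's quasi-likelihood test across all genes, where a gene passes the study's threshold if its unadjusted P is under 0.05 and its log2 fold change exceeds 1 in size. At day 10, 1.24% of the 21009 genes tested passed it, and neither lincRNA gene did. For Gm48453 the log2 fold change was -0.30 (SE 1.61, 95% interval -3.74 to 3.14, P = 0.853, adjusted p = 1, exact permutation p = 0.7). Without IVG replicate 2, the library with 306 counts, it was 0.12. For Gm20597 it was 0.33 (SE 1.59, 95% interval -3.11 to 3.78, P = 0.838, adjusted p = 1, exact permutation p = 0.4). The replicate numbers paired these libraries, and with the replicate block the values were -0.22 and 0.39. Both intervals span changes of several fold either way, so a like level with and without NT-4 is not shown. The exact two-sided permutation test of 3 against 3 libraries has 20 assignments and cannot go below p = 0.1.

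At day 6, 11.6% of the genes tested passed the threshold, and Gm20597 was among them. Its log2 fold change was -6.49 (SE 2.35, 95% interval -11.59 to -1.39, P = 0.0166, exact permutation p = 0.1). It failed the correction over all genes (edgeR, adjusted p = 0.381). Gm20597 passed the filter on low counts in the fit of all 15 libraries, which holds the day 10 libraries used to choose it. In fits of the 2 day 6 groups alone the filter removed Gm20597. All 3 IVG-NT day 6 libraries were below all 3 IVG day 6 libraries, as for 7.44% of the genes tested, and 0.1 is the smallest p the permutation test can give. The fitted value rests on an added prior count, and against 3 counts over the group the level with NT-4 was at least 7.44-fold lower. At the mean level of IVG day 6, the 2 shallow IVG-NT libraries would have held 1.70 and 1.77 counts, so a difference was not detectable at their depth. Replicate 3 would have held 18.9 counts and had 0, which taken alone is at least 6.28-fold lower. Beside the exact permutation p, edgeR's unadjusted P rose from 0.0166 to 0.0576 without that library, to 0.150 among the rRNA-rich libraries only and to 0.0932 with every counted gene kept in the fit, which ended the call. The log2 fold change in these settings was -6.42, -5.97 and -6.47. With 0 counts in every IVG-NT day 6 library its direction could not change. Its size in edgeR rests on the added prior count, so these values are no sign of a stable effect. DESeq2 kept the call at a smaller log2 fold change of -3.78 (adjusted p = 0.241).

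The log2 fold change of Gm48453 at day 6 was 3.14 (SE 1.75, 95% interval -0.59 to 6.88, P = 0.0926, adjusted p = 0.483, exact permutation p = 0.8). Without IVG-NT day 6 replicate 1 it was 0.18, and without replicate 2 it was 3.70 and passed the threshold (edgeR, adjusted p = 0.442). DESeq2 also called it at a log2 fold change of 3.62 (adjusted p = 0.175). The NT-4 effect at day 6 minus that at day 10 was 3.45 for Gm48453 (edgeR, adjusted p = 0.920) and -6.82 for Gm20597 (SE 2.73, 95% interval -12.73 to -0.92, adjusted p = 0.699). The latter passed the unadjusted threshold and failed the correction over all genes.

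Within day 10 the 2 lincRNA genes were ordered differently by the kind of library. Gm48453 was at 3.62 to 6.94 CPM in the 4 rRNA-rich libraries and at 2.39 and 3.20 CPM in the 2 rRNA-poor libraries. Gm20597 was at 0.674 to 1.30 CPM in the rRNA-rich and at 1.83 and 1.85 CPM in the rRNA-poor libraries. Of all genes tested, 24.4% were higher in every rRNA-rich than in any rRNA-poor day 10 library and 31.2% the other way, so a separation by kind was common and is no feature of these 2 genes. Each kind holds both IVG and IVG-NT libraries, so the order is not that of the NT-4 groups. With 4 and 2 libraries a kind, no correlation between the genes was given.

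**Figure D2:**
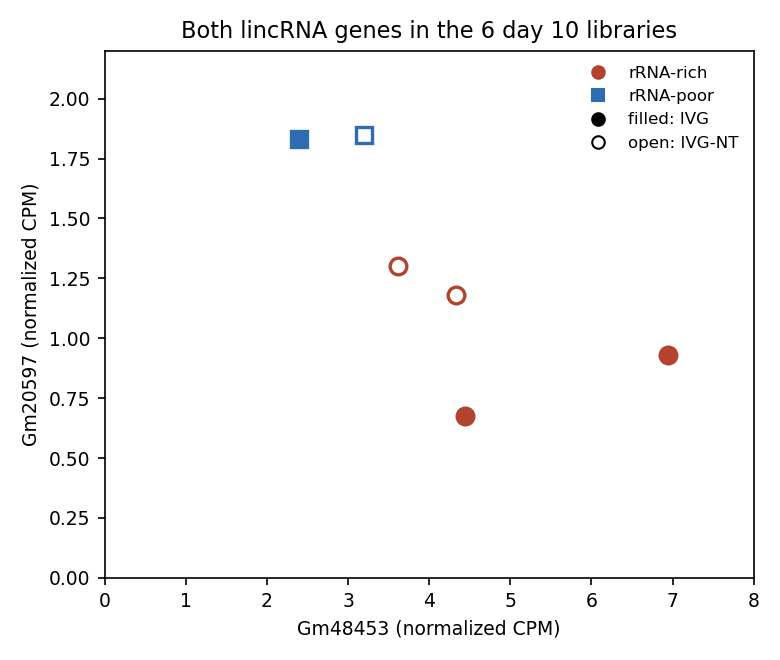
Level of Gm20597 against that of Gm48453, both in normalized CPM, in the 6 day 10 libraries; filled symbols are IVG and open symbols IVG-NT, circles rRNA-rich and squares rRNA-poor. The 2 rRNA-poor libraries combine the highest Gm20597 levels (1.83 and 1.85) with the lowest Gm48453 levels (2.39 and 3.20).

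Of all 55401 genes, 15 (0.0271%) had 0 counts in each IVV library and a count in each day 10 library, and 85 (0.153%) had the mirror pattern of a count in each IVV library and none in any day 10 library. The 15 comprised 5 protein-coding genes, 4 lincRNA genes, 2 processed pseudogenes, 2 miRNA genes, 1 gene of another RNA class and 1 that was not in the annotation. Ranked by their lowest day 10 count, Gm48453 (123) and Gm20597 (24) came first. The next was Wfikkn1, a secreted protein with protease inhibitor domains, with 12 to 40 counts, named after its values were seen like the others here. The 2 other lincRNA genes of the pattern were Gm13855 (7 to 83 counts) and Gm42825 (5 to 41 counts). Just outside the rule, the pseudogene Gm14536 had 1 IVV count in all and 36 to 108 counts at day 10. Tmem150cos, an antisense gene, had 13 IVV counts and 24 to 56 at day 10. Leaving out IVV replicate 2, 3 or 4 raised the number of genes from 15 to 50, 55 and 45.

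**Figure D3:**
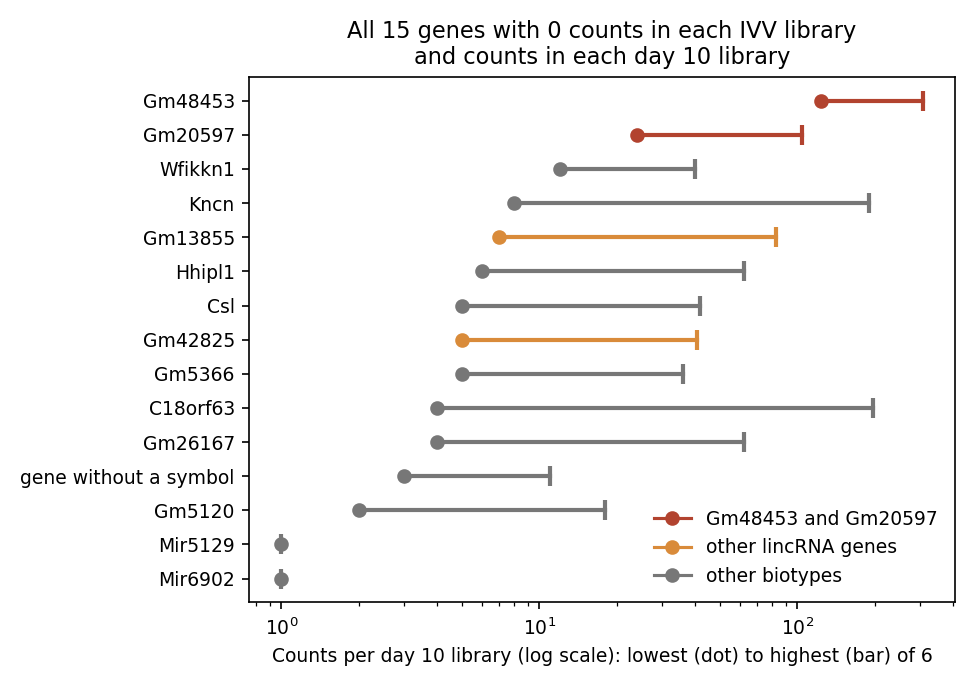
The 15 genes with 0 counts in each IVV library and counts in each of the 6 day 10 libraries, with the lowest (dot) and highest (bar) day 10 count of each on a log scale. Gm48453 (123 to 306) and Gm20597 (24 to 104) have the highest lowest counts, ahead of Wfikkn1 (12 to 40).

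On a scale per length (FPKM), Gm48453 was at 2.03 ± 0.913 in IVG (SD, n = 3) and 1.31 to 1.64 in the 3 IVG-NT libraries. Gm20597 was at 0.233 ± 0.161 FPKM in IVG (SD, n = 3) and 0.253 ± 0.105 FPKM in IVG-NT (SD, n = 3). Among the 863 to 1332 lincRNA genes with a count in a day 10 library, Gm48453 stood at the 63.1st to 83.8th percentile and Gm20597 at the 15.4th to 42.2nd. Of 16 well-studied long noncoding RNAs, 14 had a lower median FPKM over the day 10 libraries than Gm48453 (1.59), and 9 had a lower one than Gm20597 (0.193). The 2 above Gm48453 were Malat1, a nuclear speckle RNA (7.74), and Tug1, a widely expressed lncRNA (2.99). Xist, the RNA that coats the inactive X chromosome, stood at 0.161 and H19, an imprinted lncRNA, at 0. Gas5, a host of small nucleolar RNAs, lay close below Gm48453 in this order, with a median of 1.40 FPKM.

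The other lincRNA genes were compared between day 10 and in vivo oocytes without the 2 selected on this contrast. Of 1274 tested, 65 (5.10%) were called in IVG against IVV, 9 higher and 56 lower. Of all genes tested 2.76% were called, 177 higher and 402 lower. In IVG-NT against IVV 67 (5.26%) were called, 7 higher and 60 lower, beside 3.29% of all genes (131 higher and 560 lower). The median log2 fold change of the lincRNA genes was -1.18 and -0.94, beside -0.20 and -0.19 over all genes tested, and both comparisons share the IVV libraries. The larger share of lincRNA genes than of all genes was not kept in some other fits. With only 2 groups fitted, 4.03% of lincRNA genes against 5.28% of all genes were called in IVG and 3.32% against 4.10% in IVG-NT. Among the rRNA-rich libraries the shares were 1.14% against 1.68% and 1.31% against 1.53%. By DESeq2 the larger share was kept in IVG (3.22% against 2.57%) and not in IVG-NT (2.67% against 2.70%). With the library kind in the model it was kept in both (7.14% against 3.83% and 7.38% against 4.31%). None of the lincRNA genes passed an adjusted p of 0.05 in edgeR, with 65 and 67 at an unadjusted P under 0.05, and DESeq2 had 8 in each comparison. Another scaling, DESeq2's size factors within edgeR, moved the medians over all genes to -0.39 and -0.36. Without IVG replicate 1 or 2 the number called in IVG against IVV fell to 21 (8 higher and 13 lower) and 20 (5 and 15). The shares were 1.30% and 1.26%, beside 0.843% and 0.954% of all genes, so the fall was not particular to lincRNA genes. Without IVG-NT replicate 1 or 2 the number called in IVG-NT against IVV fell to 17 (6 and 11) and 20 (6 and 14). Here the shares were 1.06% and 1.25%, beside 0.999% and 1.08% of all genes. Replicates 1 and 2 of both groups were rRNA-rich. Without the rRNA-poor replicate 3 of IVG or IVG-NT the numbers were 84 and 89 (5.32% against 4.56% and 5.57% against 4.77%). The cause of this was not tested. Of the 5614 lincRNA genes in the data, 411 had a count in all IVV and day 10 libraries and 11 had the mirror pattern.

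The neighbours were taken as each annotated gene that overlaps one of the 2 lincRNA genes and the 5 nearest on either side, 10 for Gm48453 and 11 for Gm20597. Of these 21 genes 13 had at least 10 counts over all libraries, 5 had none, and none had the pattern of 0 in IVV and counts in each day 10 library. The fit tested 7 of them, and 0 were called in any of the 4 comparisons by edgeR, with 0 at an unadjusted P under 0.05. Over all genes the share called was 2.76% in IVG and 3.29% in IVG-NT against IVV, 1.24% between them and 11.6% at day 6, so that few or no calls among 7 genes are near the background. DESeq2 called 0 in the 3 day 10 comparisons, beside 2.57%, 2.70% and 0.714% of all genes, and 2 at day 6, beside 12.5%. These were Phf11a (log2 fold change 5.26) and AC155941.1 (5.92), both higher with NT-4. In edgeR the day 6 value of Phf11a was 4.80 and fell to 2.54 without IVG-NT day 6 replicate 1.

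**Figure D4:**
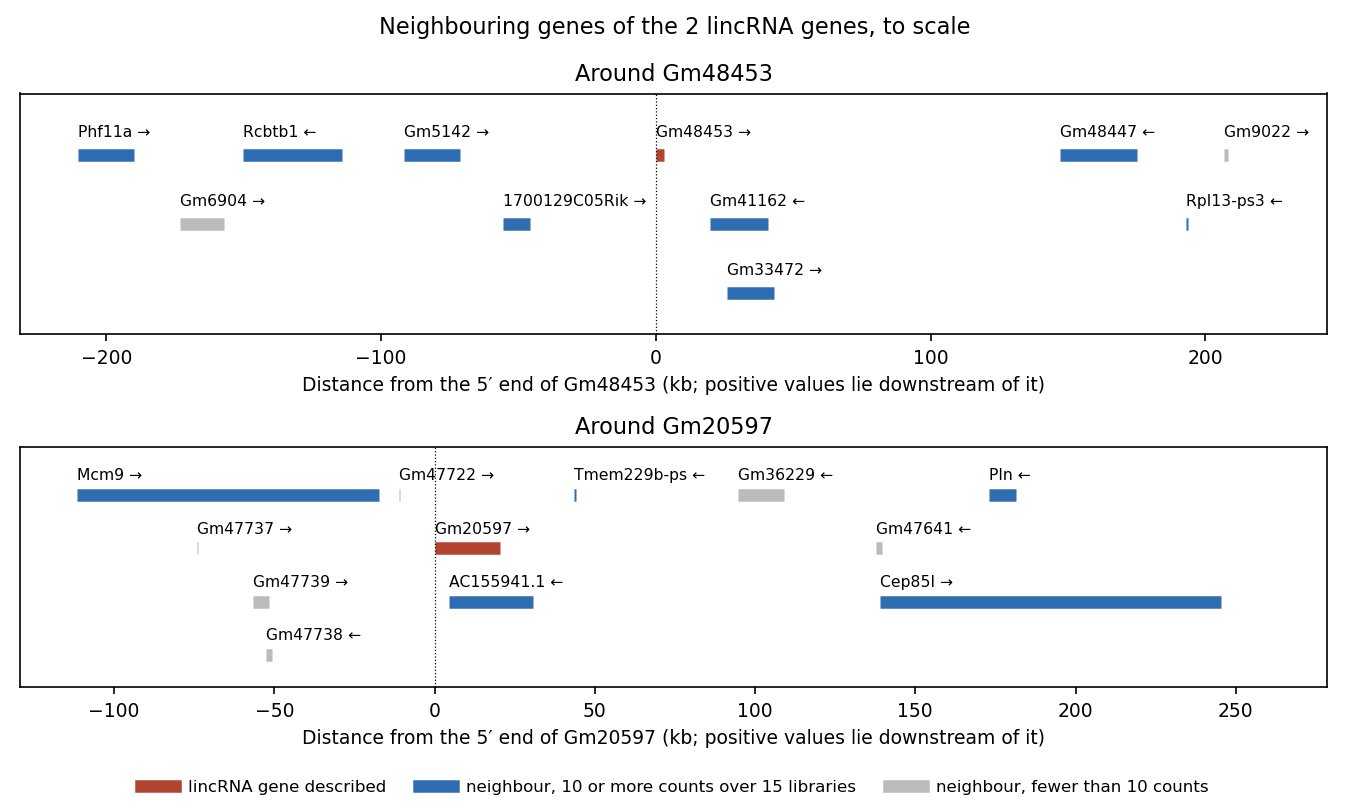
Annotated neighbours of Gm48453 (top) and Gm20597 (bottom), to scale in kb from the 5′ end of each lincRNA gene; arrows give the direction of transcription, with both lincRNA genes read to the right, and blue marks the 13 neighbours with at least 10 counts. Mcm9 lies 17.3 kb upstream of Gm20597 on the same strand, and AC155941.1 overlaps Gm20597 on the other strand.

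The annotated genes nearest to Gm48453 had few counts, and read coverage between genes was not examined. The nearest gene, the lincRNA gene Gm41162 at 16.9 kb, had all of its 52 counts in IVG-NT day 6 replicate 2, the library in which Gm48453 had none. Gm33472, a lincRNA gene 23.1 kb away on the same strand, had counts in 6 libraries, with 4 in 1 IVV library and at most 53 in any. The protein-coding 1700129C05Rik (45.9 kb) had 106 of its 110 counts in IVG-NT day 6 replicate 2 and the other 4 in IVV replicate 3. Gm5142 (71.4 kb) had 15 counts in 1 IVG day 6 library and 25 in 1 IVV library, and Gm48447 (144 kb) had 15 counts in all. The first neighbour with counts in nearly all libraries was Rcbtb1 (114 kb), which encodes a protein with RCC1 and BTB domains. Its counts were 394, 246 and 403 in IVV, 231, 436 and 392 in IVG and 409, 375 and 284 in IVG-NT. The groups overlapped, and the log2 fold change against IVV was -0.43 in IVG (95% interval -3.16 to 2.30) and 0.001 in IVG-NT (95% interval -2.72 to 2.72). Rpl13-ps3, a pseudogene of a ribosomal protein, overlapped between these groups as well (0.41 and 0.34), and its reads may be divided with its parent gene. Each value rested on 1 library, since it was -3.22 without IVG replicate 3 and -2.14 without IVG-NT replicate 3. Rpl13-ps3 was lower at day 10 within the rRNA-rich libraries (0.0562 to 0.203 CPM against 0.606 in IVV) and higher within the rRNA-poor ones (2.41 and 2.71 against 0.752 and 0.796). Phf11a, a PHD finger gene 190 kb away, had 15, 3 and 12 counts in IVV, 6, 6 and 8 in IVG and 0, 0 and 12 in IVG-NT. Each IVG library was below each IVV library in CPM, as for 6.53% of genes tested, with a log2 fold change of -0.73 (edgeR P = 0.735, exact permutation p = 0.1) that turned to 0.17 with the library kind in the model. IVG-NT overlapped with IVV, with a log2 fold change of -1.35 that was -6.17 without IVG-NT replicate 3.

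Gm20597 lies between Mcm9 and Cep85l, both read from the same strand as Gm20597. Mcm9 encodes a helicase of the MCM family that acts in DNA repair by homologous recombination and is needed for germ cells in mice. It had 653, 346 and 1028 counts in IVV, 787, 1213 and 2313 in IVG and 1108, 1035 and 1856 in IVG-NT. In normalized CPM each library of both day 10 groups lay above each IVV library, as for 5.35% of the genes tested in IVG and 4.57% in IVG-NT. Neither difference passed the test: the log2 fold change was 0.70 in IVG (SE 0.79, 95% interval -0.96 to 2.37, edgeR P = 0.386) and 1.0 in IVG-NT (SE 0.79, 95% interval -0.67 to 2.67, edgeR P = 0.224), with an exact permutation p of 0.1 in both. Over 14 settings each the values stayed positive, at 0.26 to 1.11 and 0.72 to 1.22. Within the rRNA-rich libraries Mcm9 was at 21.0 CPM in the IVV library and 22.1 to 35.0 CPM at day 10, and within the rRNA-poor libraries at 13.7 and 20.9 CPM in IVV and 40.7 and 43.4 CPM at day 10.

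Cep85l, which encodes a centrosomal protein, lies 118 kb downstream. In these groups its level followed the kind of library, with 51.9 CPM in the rRNA-rich IVV library and 46.2 to 51.6 CPM in the rRNA-rich day 10 libraries, against 9.88 and 12.4 CPM in the rRNA-poor IVV libraries and 20.4 and 21.1 CPM in the rRNA-poor day 10 libraries. The log2 fold change against IVV was 0.64 in IVG (95% interval -1.43 to 2.71) and 0.73 in IVG-NT (95% interval -1.34 to 2.80), and neither was called. Pln, which encodes the calcium pump inhibitor phospholamban, had all of its 53 counts in 1 IVV library. The pseudogene Tmem229b-ps (23 kb) had 35 counts in all, of which 15 were in 1 IVV library.

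AC155941.1, the lincRNA gene that overlaps Gm20597 on the other strand, had 0, 0 and 14 counts in IVV, 40, 8 and 128 in IVG and 0, 22 and 50 in IVG-NT. It was therefore outside the rule on both sides, with counts in 1 IVV library and none in IVG-NT replicate 1, where Gm20597 had 44. Its log2 fold change against IVV was 3.53 in IVG (SE 2.73, 95% interval -2.23 to 9.29) and 2.64 in IVG-NT (SE 2.63, 95% interval -2.92 to 8.20). The groups overlapped and neither difference was called. Without IVV replicate 4, the single IVV library with counts, the values were 8.40 and 7.5, and neither was called. At day 6 it had 0, 0 and 38 counts in IVG and 0, 155 and 0 in IVG-NT, the 155 in replicate 2, the library of 7125348 counts, where Gm20597 had 0. Without that library the day 6 log2 fold change went from 5.51 (edgeR, adjusted p = 0.471) to -5.94.

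**Figure D5:**
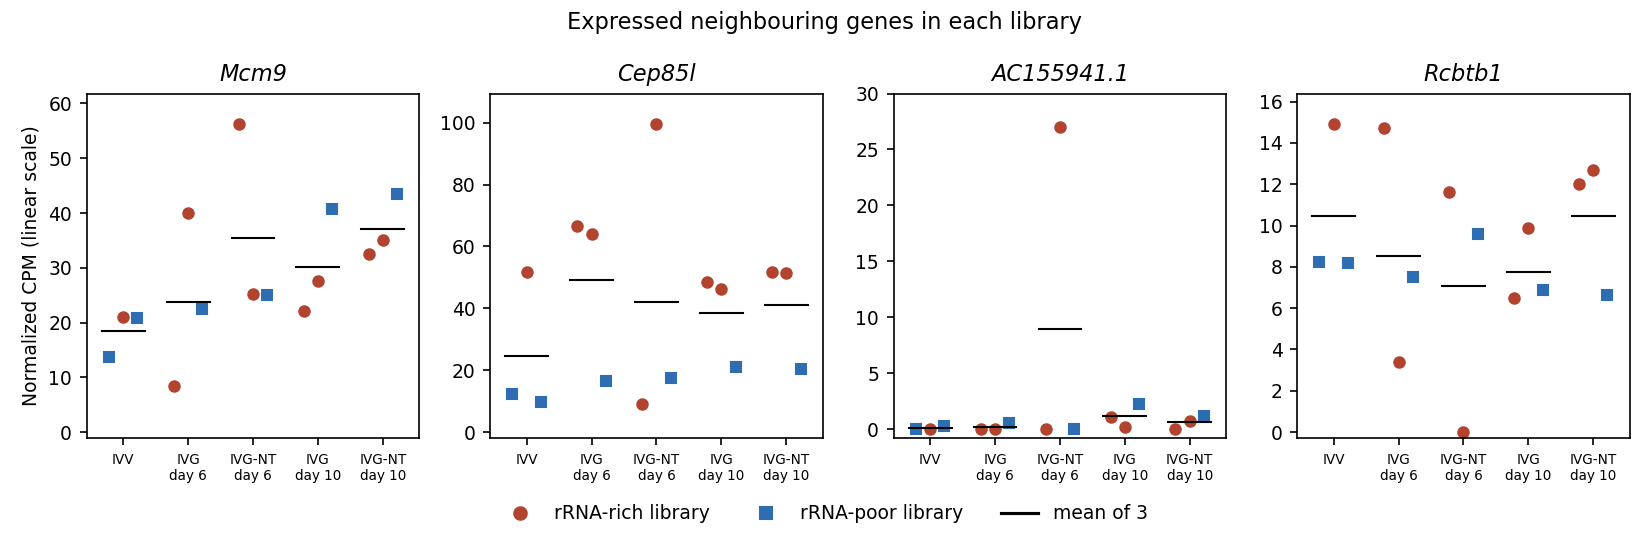
Normalized CPM (linear scale) of 4 neighbouring genes in each of the 15 libraries by group; circles are rRNA-rich and squares rRNA-poor libraries, and bars are means of 3. For Mcm9 both day 10 groups lie above the IVV group, Cep85l is higher in rRNA-rich than in rRNA-poor libraries at day 10 (46.2 to 51.6 against 20.4 and 21.1), and 1 IVG-NT day 6 library holds most of the AC155941.1 signal.

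The genes most like each lincRNA gene were found by Pearson's r of log2 CPM over the 15 libraries, which share their depth and kind. They are the highest of 21009 genes tested, over counts that include those used for the choice, and are a description with no test. For Gm48453 these were Egln3 (r = 0.84), a prolyl hydroxylase of the hypoxia-inducible factors, the pseudogene Gm13414 (0.83), Nsun5 (0.82), an rRNA methyltransferase, Tdp1 (0.82), a DNA repair enzyme, and the lincRNA gene Gm36635 (0.81). Egln3 had 0, 0 and 13 counts in IVV and 4 to 70 at day 10, whereas Tdp1 had 449 to 1687 counts in IVV and 1533 to 2616 at day 10, so a high r did not need an absence in vivo. For Gm20597 they were Gm13855 (0.86), Tmem150cos (0.85), Cox10 (0.84), an enzyme of heme A synthesis, A930003O13Rik (0.83) and the pseudogene Gm8750 (0.81). Of these Gm13855 has the same pattern of counts, with 0 in all IVV libraries, and A930003O13Rik had 2 IVV counts and 5 to 101 counts at day 10. None of the 10 genes lies on chromosome 10 or 14 or is a neighbour of either lincRNA gene, and the 2 lists share no gene.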

How the data were processed

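Oocyte RNA was amplified from 6 oocytes per library. The authors removed reads with adaptors or a quality below 20, mapped the remainder to the mm10 genome by HISAT2 and assembled transcripts with StringTie; the submitters' processing notes also name FastQC and edgeR. They deposited 1 file of raw, unnormalized counts per library, with Ensembl gene identifiers. How reads were counted, with which annotation release and how multi-mapping reads were treated, is not given in the sources used here. A table of the whole series repeats the same counts and was not used.

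Groups and replicate numbers came from the sample titles. The in vivo titles number the libraries 2 to 4. Symbols, biotypes, exons and neighbours were taken from GENCODE vM21 (GRCm38), in which 55141 of 55401 genes have a symbol. Where nothing states separate animals, p-values measure the spread between these libraries. Genes were kept by filterByExpr (minimum count 10), normalized by TMM and fitted as 5 group means over 15 libraries with the quasi-likelihood F test (edgeR 4.0.16, limma 3.58.1, R 4.3.3). P-values were adjusted by Benjamini-Hochberg over all 21009 genes tested. DESeq2 1.42.0 was an alternative. Log2 CPM used a prior count of 2. FPKM divided counts by the union of exons. Scripts were tested on simulated data. Limits for 0 counts (3 counts) and intervals (95%) follow from counting error and from the fit respectively.

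The named genes were both lincRNA genes, all genes with the same pattern whose lowest day 10 count was at least that of Gm20597, every overlapping gene and the 5 nearest on each side with at least 10 counts, the 5 genes most correlated with each lincRNA gene, and 16 well-studied lncRNAs; genes outside this are named as such. The members, lists and rules were chosen with earlier results of these data known. The limit of 5% between rRNA-rich and rRNA-poor libraries was likewise chosen with these shares known. IVG-NT and IVG libraries of the same number deviated together (r = 0.37, 0.41 and 0.73), so the number was treated as pairing them at day 10. Libraries of one kind but different numbers also deviated together (r = 0.27 and 0.37), and the kind follows the number in these groups. The files of the in vivo libraries carry other numbers than their titles.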

Additional observations from a re-analysis of the deposited data

Results flagged for a closer look

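The NT-4 effect on Gm20597 at day 6 minus that at day 10 was -6.82 on the log2 scale (edgeR, adjusted p = 0.699). It was flagged because the effects on the 2 days differed at an unadjusted P under 0.05 in a test of the difference itself. The choice asked for counts in every day 10 library, which limited the day 10 effect. The day 6 counts were not used in the choice. However, Gm20597 entered the day 6 test through the day 10 libraries, since the filter removed it in fits of the 2 day 6 groups alone. The difference rests on 0 counts in all 3 IVG-NT day 6 libraries. Of these, 2 were too shallow to show the gene at its level in the control culture. The difference failed the correction over all genes.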

How the results depend on the processing

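The direction of each NT-4 effect on the 2 lincRNA genes was kept in every setting that gave a value but 1, the day 10 effect on Gm48453, which was 0.12 without IVG replicate 2. For Gm20597 at day 6 the direction could not change, with 0 counts in every IVG-NT day 6 library. The size of that effect in edgeR rests on the prior count. With 1 library left out, the log2 effects ranged from -0.61 to 0.12 (Gm48453) and from 0.04 to 0.84 (Gm20597) at day 10, and from 0.18 to 4.24 (Gm48453) and from -6.71 to -6.28 (Gm20597) at day 6. The day 6 call of Gm20597 was lost with no filter on low counts (-6.47) and among rRNA-rich libraries only (-5.97), and Gm48453 was called by DESeq2 (3.62). DESeq2 kept the call of Gm20597 with a log2 effect of -3.78. The causes were not tested.

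The number of lincRNA genes called in IVG and IVG-NT against IVV was 65 and 67. It became 171 and 165 with no filter on low counts, where 3111 were tested, 41 and 34 by DESeq2, 40 and 32 in a fit of the 2 groups alone, and 21 and 24 among rRNA-rich libraries only. The lincRNA share was below that of all genes in both of the last settings, with 4.03% against 5.28% and 3.32% against 4.10%, then 1.14% against 1.68% and 1.31% against 1.53%. With no filter it was 5.50% against 4.49% and 5.30% against 4.33%, and by DESeq2 3.22% against 2.57% and 2.67% against 2.70%. With the library kind in the model 91 and 94 lincRNA genes were called (7.14% against 3.83% and 7.38% against 4.31%). DESeq2's size factors within edgeR gave 62 and 71 (4.87% against 2.58% and 5.57% against 3.25%). With 1 library left out the number ranged from 20 to 84 and from 17 to 89. The share of all genes called then ranged from 0.843% to 4.56% and from 0.999% to 4.77%. Calls of lincRNA genes were more often lower than higher in all of these settings. Over all genes the main fit leaned the same way, with 177 higher and 402 lower in IVG and 131 and 560 in IVG-NT. Neighbours called at day 6 went from 0 to 2 with no filter, by DESeq2 and with library kind added to the model, to 1 among rRNA-rich libraries only, and to 0 to 2 with 1 library left out (Phf11a without IVG-NT day 6 replicate 2, Phf11a and AC155941.1 without IVG day 6 replicate 3). The 2 with no filter were Gm41162 and 1700129C05Rik, whose day 6 counts all came from IVG-NT day 6 replicate 2. By DESeq2 they were Phf11a and AC155941.1. Of all genes, 11.6% were called at day 6 in the main fit and 12.5% by DESeq2. The 15 genes with the pattern became 9 with at least 5 counts in each day 10 library, 3 with at least 10, and 45 to 55 with 1 IVV library left out.

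The replicate block with only the 2 groups changed no call of the 2 lincRNA genes that it could test; at day 6 it gave 0.46 for Gm48453 and no value for Gm20597, which the filter removed. It left 0 neighbours called and 3 and 2 lincRNA genes called in IVG and IVG-NT against IVV (0.279% and 0.198%, beside 0.4% and 0.417% of all genes). The 3 in IVG were lower, and those in IVG-NT were 1 higher and 1 lower. Numbers shared with IVV and those at day 6 were not taken as a pairing (r = -0.28 and -0.49 for IVG with IVV, and 0.08, 0.11 and 0.33 at day 6). Differently numbered pairs at day 6 ran from -0.23 to 0.10, so these values do not settle whether day 6 numbers pair libraries. The kind of library, both as a covariate and as a restriction, was a setting chosen after seeing the data. Depth limits the day 6 comparison, since 2 of the 3 IVG-NT libraries held 5954262 and 7125348 counts.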
